A study of Sorghum bicolor with 12 samples.

Results

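The 7 genes described here encode enzymes of C4 photosynthesis in sorghum (Sorghum bicolor), and they were measured in root RNA. They were chosen by gene ID, as phosphoenolpyruvate carboxylase (PEPC, Sobic.010G160700), the carbonic anhydrases (CA) Sobic.003G234200 and Sobic.003G234400, NADP-malate dehydrogenase (NADP-MDH, Sobic.007G166300), NADP-malic enzyme (NADP-ME, Sobic.003G036200), the small subunit of Rubisco (RbcS, Sobic.005G042000) and pyruvate phosphate dikinase (PPDK, Sobic.009G132900). All 7 were among the 34129 genes of the count table, and all 7 passed the low-count filter that kept 23707 genes. The enzyme names follow common usage for these IDs, because the table holds IDs only.

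The study compared roots of the brassinosteroid receptor mutant bri1-ems72 with those of WT-ems72, the wild-type sibling line, and asked which transcripts depend on the receptor BRI1. Plants of both genotypes were BC2F2 progeny of a backcross. Seedlings of both genotypes came from embryos taken 13 to 17 days after anthesis, were raised in vitro without any treatment for 8 days at 28 °C, and gave RNA from pools of at least 6 roots. Each genotype had 3 pools, and each pool had 2 columns of counts from technical runs, which were summed. Pool totals ran from 44357644 to 54629427 counts. BRI1 itself (Sobic.003G277900) ranged from 74.9 to 88.4 CPM over the wild-type pools and from 97.8 to 106.9 CPM over the mutant pools. Its log2 fold change, mutant relative to wild type, was 0.28, with a 95% interval from -0.12 to 0.67 (edgeR, unadjusted p = 0.144). Pools of the genotypes were separated without overlap for 4.58% of all tested genes. CPM (a count scaled to a common library size) was computed per pool with TMM factors, which balance libraries of different make-up. These levels do not check the genotype labels, since a mutation need not alter the amount of transcript. The sample descriptions name the mutant pools KO.

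In a C4 leaf these enzymes act in sequence across neighbouring cell types. Carbonic anhydrase makes bicarbonate in the mesophyll, PEPC fixes it to phosphoenolpyruvate, NADP-MDH reduces the product to malate, and NADP-ME releases CO2 from malate in the bundle sheath, where Rubisco fixes it again. PPDK then regenerates phosphoenolpyruvate. The leaf isoforms of these enzymes are known for light-dependent expression in green tissue, and roots carry related isoforms for other metabolic work.

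The 7 transcripts fell into a group that was read clearly in each root pool and others that came close to the limit of detection in some. RbcS, PPDK, NADP-MDH and CA Sobic.003G234400 reached at least 11.0 CPM in every pool. PEPC and NADP-ME, the initial carboxylase and the decarboxylase of the cycle, reached at most 8.27 and 1.73 CPM and had only 3 counts in their lowest pool. Gene lengths were not joined to these IDs, so levels are compared here between pools of a gene and not ranked between genes.

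PEPC, the initial carboxylase, was read at low and very uneven levels. In replicates 1, 2 and 3, PEPC stood at 3.19, 2.84 and 1.49 CPM for WT-ems72, and at 0.140, 0.0576 and 8.27 CPM for bri1-ems72; values below are listed in this order of replicates. The mutant pools held both the highest and the lowest values, with the wild-type pools in between. Behind the low values stood 6 counts in bri1-ems72 replicate 1 (0.0515 to 0.305 CPM, exact 95% Poisson interval) and 3 counts in bri1-ems72 replicate 2 (0.0119 to 0.168 CPM), and behind the highest 425 counts. The ratio of highest to lowest pool was 143.7, with an exact 95% counting interval of 48.8 to 699.6. It was 58.3 without bri1-ems72 replicate 2 and 55.4 without bri1-ems72 replicate 3. These intervals cover counting error only.

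CA Sobic.003G234200, which makes the bicarbonate that PEPC uses, was high in a single pool. Its wild-type pools had 0.928, 45.6 and 0.854 CPM, and its mutant pools had 6.08, 0.345 and 7.98 CPM. WT-ems72 replicate 2 stood far above the other 5 pools, and the remaining wild-type pools lay between the mutant pools. The highest pool had 132.1 times the level of the lowest, and 53.4 times separated pools within WT-ems72 alone. Without WT-ems72 replicate 2 the range fell to 23.1-fold, and without bri1-ems72 replicate 2 to 53.5-fold. CA Sobic.003G234400, whose ID lies close by in number, was much steadier, at 18.9, 90.3 and 23.1 CPM in the wild type and 60.1, 36.9 and 28.2 CPM in the mutant. WT-ems72 replicate 2 was again the highest, here at 4.79 times the lowest pool. Near-identical copies of a gene can share reads, and the sources used here do not give how the counting treated such reads.

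NADP-MDH, the plastid enzyme that turns oxaloacetate into malate, had 19.5, 47.6 and 14.7 CPM in the wild-type pools. The mutant pools had 36.1, 11.0 and 30.7 CPM. Its 6 values spanned 4.31-fold, close to the 4.79-fold of CA Sobic.003G234400, and the genotypes overlapped. Which of these genes had the narrower range changed with the pool left out, at 3.31-fold for NADP-MDH against 3.21-fold for the CA gene without WT-ems72 replicate 2, and 4.29-fold against 3.89-fold without WT-ems72 replicate 1. NADP-ME, the decarboxylase that gives the NADP-ME type of C4 photosynthesis its name, had 1.73, 1.12 and 0.0545 CPM in the wild type and 0.234, 0.173 and 0.428 CPM in the mutant. WT-ems72 replicates 1 and 2 were above every mutant pool and WT-ems72 replicate 3 was below all of them, with 3 counts. Its highest and lowest pools differed 31.6-fold (exact 95% counting interval 10.4 to 156.7), and 10.01-fold without WT-ems72 replicate 3 or 20.5-fold without WT-ems72 replicate 1.

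RbcS, the nuclear-encoded small subunit of the carbon-fixing enzyme, had 240.7, 1148 and 188.8 CPM in wild-type roots. In mutant roots it had 597.1, 51.8 and 421.7 CPM. PPDK, which restores the acceptor of PEPC, had 74.2, 279.5 and 59.7 CPM in the wild-type pools and 164.7, 14.7 and 166.3 CPM in the mutant pools. For both genes WT-ems72 replicate 2 was the highest pool and bri1-ems72 replicate 2 the lowest, 22.2-fold apart for RbcS and 19.0-fold apart for PPDK. These ranges fell to 6.09-fold and 4.69-fold without bri1-ems72 replicate 2, and to 11.7-fold and 11.3-fold without WT-ems72 replicate 2. In bulk RNA, fewer cells that express a gene and less of its RNA per cell cannot be told apart.

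**Figure D1:**
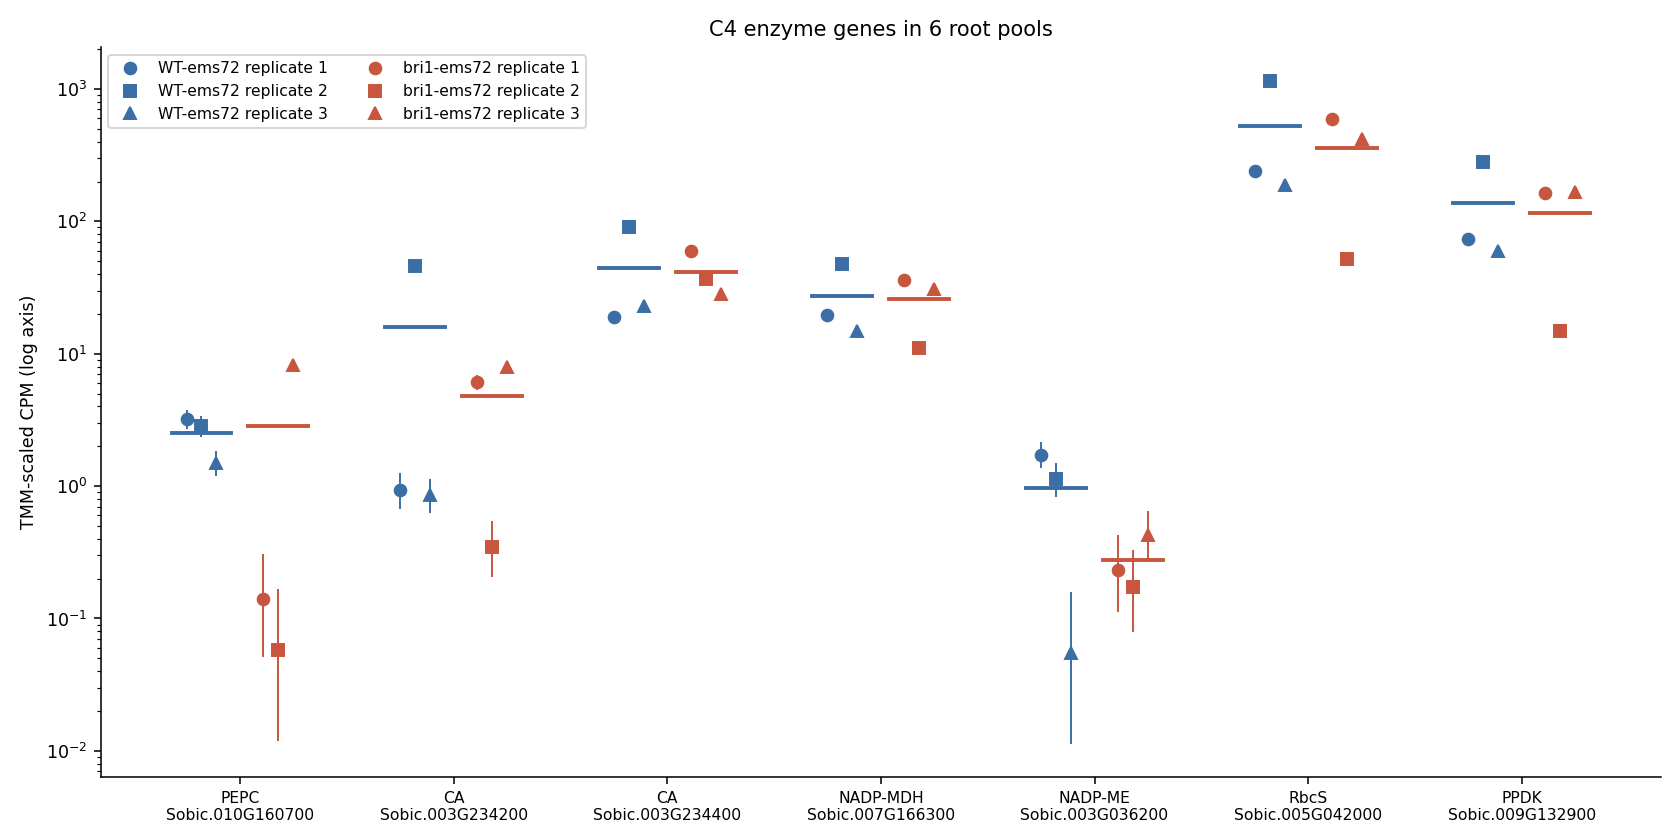
TMM-scaled CPM (log axis) of the 7 genes in each of 6 root pools, with exact 95% Poisson intervals of the counts and a horizontal line at each genotype mean. RbcS spans 51.8 to 1148 CPM and PEPC 0.0576 to 8.27 CPM, and the pools of the genotypes overlap for every gene.

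The differences between pools were many times counting error and were repeated by both columns of a pool. For RbcS the chi-square between pools divided by its degrees of freedom was 17236, against 3.30 between the 2 columns of a pool. For NADP-ME, with the fewest counts, the same values were 35.0 and 1.31. A value near 1 is what counting noise alone gives. The columns of a pool come from the same RNA pool, so they do not bear on differences between plants.

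All 7 genes varied more between pools than most genes of similar level. Similar level means a mean CPM within 2-fold of that of the gene, and the range was taken on the log2 scale with a prior count of 2. Only 0.635% of 3308 such genes had a wider range than PPDK, and 1.02% of 588 had a wider one than RbcS. The share was 0.774% for PEPC and 0.271% for CA Sobic.003G234200. It was higher, at 5.50%, 5.50% and 7.98%, for CA Sobic.003G234400, NADP-ME and NADP-MDH. Over all tested genes the median gene differed 2.03-fold between its highest and lowest pool. The biological coefficient of variation that edgeR fitted per gene was 0.499 for NADP-MDH and 1.22 for CA Sobic.003G234200, the lowest and highest of the 7 genes. Its median was 0.334 over all tested genes. Over the genes of similar level its median was 0.273 for NADP-MDH and 0.325 for CA Sobic.003G234200.

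**Figure D2:**
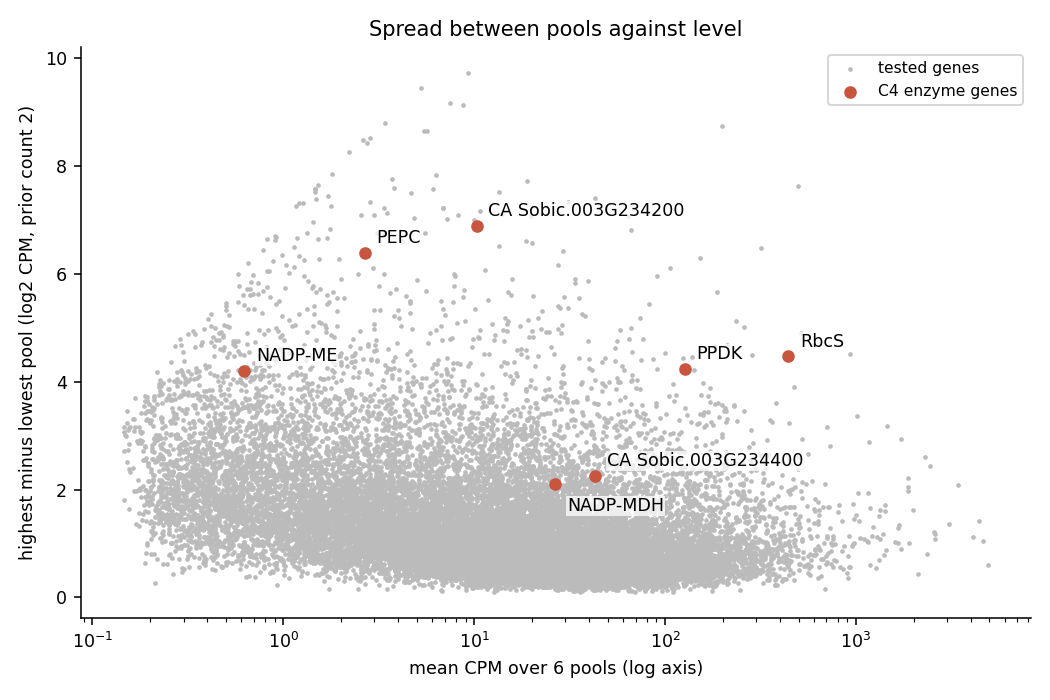
Range between the highest and the lowest pool (log2 CPM, prior count 2) against mean CPM over 6 pools (log axis) for all tested genes in grey and the 7 C4 enzyme genes in red. RbcS and PPDK lie near the top of the range at their level, with 1.02% and 0.635% of similarly expressed genes above them.

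RbcS, PPDK, NADP-MDH and CA Sobic.003G234200 ordered the pools almost alike. RbcS and NADP-MDH gave the same order, from bri1-ems72 replicate 2 as the lowest through WT-ems72 replicates 3 and 1 and bri1-ems72 replicates 3 and 1 to WT-ems72 replicate 2. PPDK and CA Sobic.003G234200 differed from it only by exchanging bri1-ems72 replicates 1 and 3. WT-ems72 replicate 2 was the highest pool for 5 of 7 genes and bri1-ems72 replicate 2 the lowest for 5 of 7. The grouping was made after the values were seen and is a description.

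PPDK kept a steadier proportion to RbcS than the other C4 enzyme genes did. Its CPM was 30.8%, 24.3% and 31.6% of that of RbcS in the wild-type pools and 27.6%, 28.5% and 39.4% in the mutant pools. The proportion varied 1.62-fold, while the genes themselves varied 19.0-fold and 22.2-fold. The proportion of NADP-MDH to RbcS varied 5.14-fold, as NADP-MDH followed the same order over a smaller range, and that of CA Sobic.003G234200 varied 10.3-fold.

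PEPC, NADP-ME and CA Sobic.003G234400 departed from that order. In bri1-ems72 replicate 1, RbcS was second highest of the 6 pools and PEPC was second lowest. The CPM of PEPC relative to RbcS varied 83.5-fold, from 0.0235% in bri1-ems72 replicate 1 to 1.96% in bri1-ems72 replicate 3. NADP-ME was highest in WT-ems72 replicate 1, where RbcS was lower than in 3 other pools. CA Sobic.003G234400 was at 71.3% of RbcS in bri1-ems72 replicate 2 and at 6.70% to 12.2% in the other 5 pools, as it did not share the low RbcS level of that pool.

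**Figure D3:**
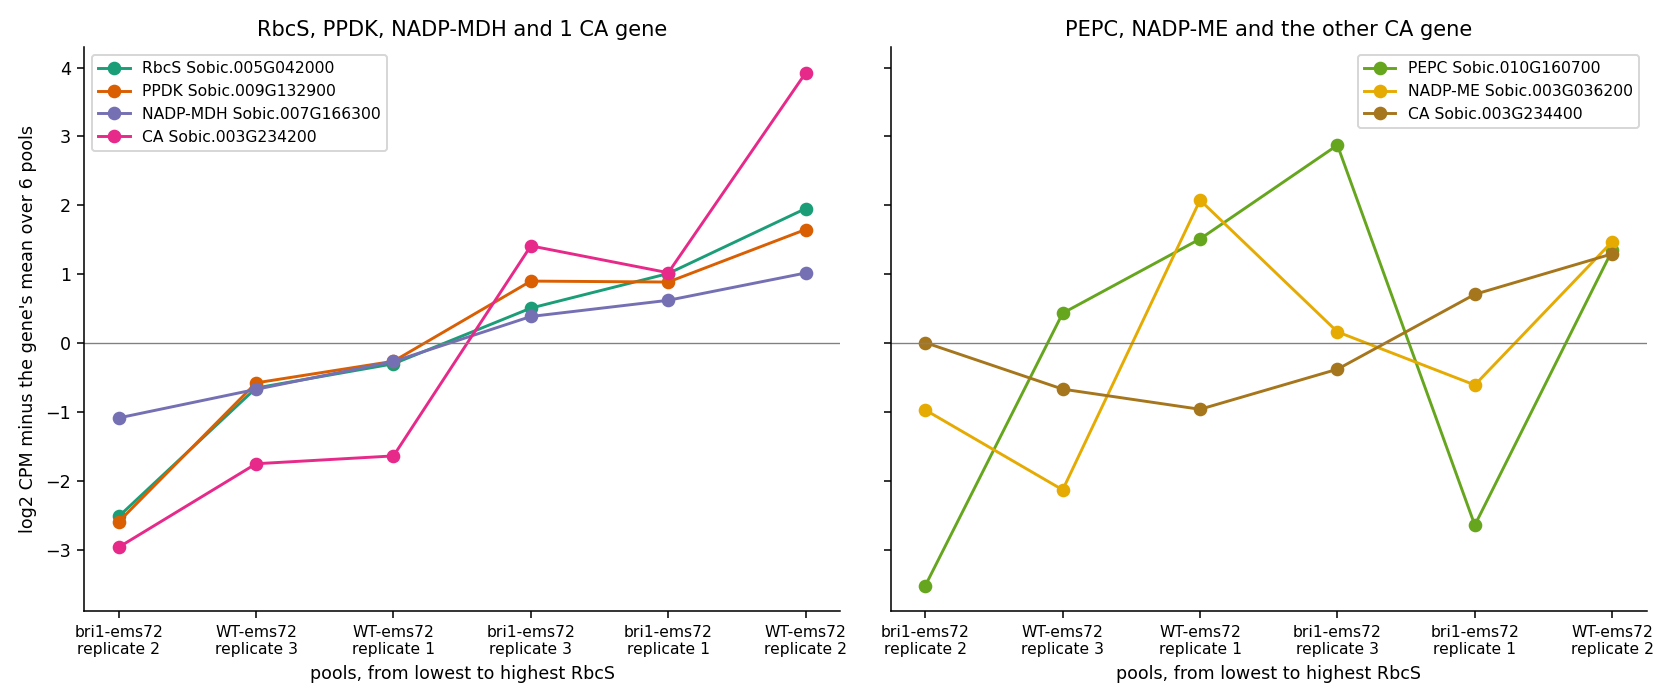
log2 CPM of each gene minus its mean over the 6 pools, with pools ordered from the lowest to the highest RbcS level. RbcS, PPDK, NADP-MDH and CA Sobic.003G234200 climb together on the left panel, while PEPC, NADP-ME and CA Sobic.003G234400 cross that order on the right panel.

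Pearson's r of log2 CPM over the 6 pools put numbers on this likeness, as a description of pools that share library scaling. RbcS and PPDK had r = 0.99, and 22 tested genes were closer to RbcS than PPDK was. NADP-MDH had r = 0.97 with RbcS and CA Sobic.003G234200 r = 0.93. PEPC had r = 0.49 with RbcS and -0.27 with CA Sobic.003G234400, and 3009 genes were closer to PEPC than PPDK was, its nearest among the C4 enzyme genes. The genes most like RbcS were Sobic.001G527000 and Sobic.003G002300, both with r of at least 0.99 and with 4.01-fold and 7.71-fold ranges between pools. The genes most like PEPC were Sobic.002G266300 and Sobic.002G013900 (r = 0.99 each), which ranged only 1.31-fold and 3.30-fold. An r of 0.95 or more was reached by 245 genes (1.03% of those compared) with RbcS and by 48 genes (0.202%) with PEPC, each over 6 points.

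The genotype contrast called none of the C4 enzyme genes. In edgeR's quasi-likelihood test, adjusted by Benjamini-Hochberg over all 23707 genes, 0 of 7 passed as higher and 0 of 7 as lower, where 0% of all tested genes passed in either direction. At an unadjusted p below 0.05 there were 0 of 7, against 1.42% of all tested genes. The pools of the genotypes separated without overlap for 0 of 7, against 4.58% of all tested genes. Where no gene differs, shares of about 0.05 and 0.1 are due for these measures with 3 pools against 3. Both shares of all tested genes were below that, so they are no background of real differences. DESeq2 called 3 genes of the table higher and 2 lower, none of them a C4 enzyme gene. It gave no adjusted p for PEPC and CA Sobic.003G234200, so neither could be called there. The labels do not say whether pools came from separate cultures, so p-values measure the spread between these pools.

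Over the wild-type pools RbcS averaged 525.8 ± 539.4 CPM (SD, n = 3), and over the mutant pools 356.9 ± 278.4 CPM (SD, n = 3). The fitted log2 fold change, mutant relative to wild type, was -0.56 with an SE of 0.98 and a 95% interval from -2.87 to 1.76 (edgeR adjusted p = 1.00). PPDK averaged 137.8 ± 122.9 and 115.2 ± 87.0 CPM (SD, n = 3 each), and its log2 fold change was -0.26, with an SE of 0.93 and an interval from -2.45 to 1.94. NADP-MDH stood at 27.3 ± 17.7 and 26.0 ± 13.2 CPM (SD, n = 3 each) and CA Sobic.003G234400 at 44.1 ± 40.1 and 41.7 ± 16.4 CPM (SD, n = 3 each); their log2 fold changes were -0.071 (SE 0.57) and -0.078 (SE 0.63). The genotype means of these 4 genes were closer together than the SD within either genotype.

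The largest fitted differences, those of NADP-ME and CA Sobic.003G234200, belonged to genes read at few counts or high in a single pool. For NADP-ME the wild-type pools averaged 0.968 ± 0.846 CPM and the mutant pools 0.278 ± 0.133 CPM (SD, n = 3 each). Its log2 fold change was -1.78, with an SE of 1.05 and an interval from -4.28 to 0.72. CA Sobic.003G234200 averaged 15.8 ± 25.8 and 4.80 ± 3.97 CPM (SD, n = 3 each), and the fitted value was -1.72 on the log2 scale, with an SE of 1.66 and an interval from -5.65 to 2.21. PEPC averaged 2.51 ± 0.899 and 2.82 ± 4.72 CPM (SD, n = 3 each), and the fitted value was 0.17, with an SE of 1.50 and an interval from -3.37 to 3.72. None of the 3 passed (edgeR adjusted p = 1.00 each). An exact two-sided permutation test of log2 CPM gave p from 0.4 to 1 for the 7 genes, where 0.1 is the smallest value that 3 pools against 3 allow.

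**Figure D4:**
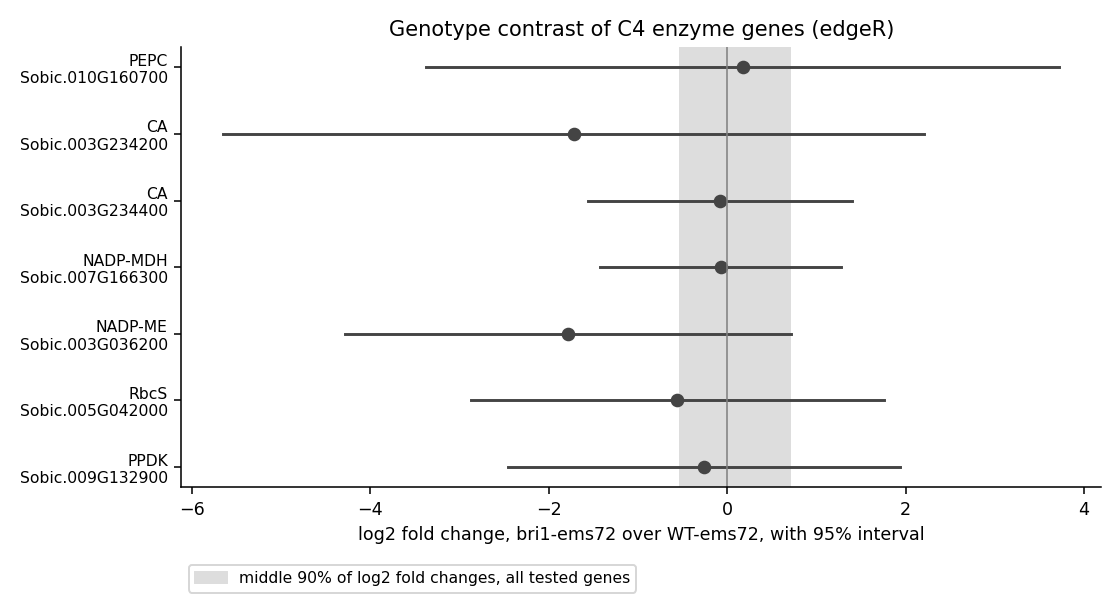
log2 fold change of bri1-ems72 over WT-ems72 for the 7 genes (points) with 95% intervals (lines) from edgeR, and in grey the middle 90% of the log2 fold changes of all tested genes (-0.52 to 0.71). Every interval crosses 0, and none lies within 1 of 0.

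These intervals leave wide limits on what the comparison can bound. For 0 of 7 genes did the 95% interval stay within a 2-fold change in either direction, against 51.1% of all tested genes. The tightest, that of NADP-MDH, allowed from 0.374 to 2.43 times the wild-type level. Of the 7 fitted log2 fold changes 6 were below 0, with a median of -0.26, against 52.0% below 0 and a median of -0.012 over all tested genes. The 7 values are not independent, as RbcS, PPDK, NADP-MDH and CA Sobic.003G234200 ordered the pools almost alike. Those of NADP-MDH (-0.071, SE 0.57) and CA Sobic.003G234400 (-0.078, SE 0.63) were close to 0.

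The signs depended on single pools. Without WT-ems72 replicate 2 only 1 of 7 fitted log2 fold changes was below 0, and the values were 0.73 for RbcS, 0.78 for PPDK, 0.60 for NADP-MDH, 0.99 for CA Sobic.003G234400 and 2.42 for CA Sobic.003G234200. In that fit CA Sobic.003G234400 had an unadjusted p of 0.0358 (edgeR, adjusted p = 1.00). Without bri1-ems72 replicate 2 the value turned to 0.29 for NADP-MDH and 0.26 for PPDK, and without bri1-ems72 replicate 3 to 0.14 for CA Sobic.003G234400. PEPC turned to -0.10 without WT-ems72 replicate 3. Leaving out bri1-ems72 replicate 3 moved PEPC to -4.65 (unadjusted p = 0.000711, adjusted p = 0.9995, edgeR), as that pool held nearly all of the mutant counts of the gene. NADP-ME stayed below 0 whichever pool was left out, at -2.35 to -1.06. Its value of -2.35, without WT-ems72 replicate 3, had an unadjusted p of 0.00956 (edgeR, adjusted p = 1.00).

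Pools that share the number in their titles gave opposite directions for 6 of 7 genes. The labels do not say what that number marks. In the pools with title number 5, which are replicate 3 of each genotype, all 7 genes were higher in bri1-ems72, by 0.29 to 3.16 on the log2 scale, where 51.5% of all tested genes were higher. With title number 2, bri1-ems72 replicate 2 was lower than WT-ems72 replicate 1 for 6 of 7 genes, where 50.2% of all tested genes were higher in the mutant pool. There RbcS differed by -2.22, PPDK by -2.33 and PEPC by -5.03 on the log2 scale. CA Sobic.003G234400 differed by 0.97 and was thus higher in the mutant pool with either number. RbcS and PPDK, higher in the mutant by 1.16 and 1.48 with title number 5, thus had opposite signs in these pairs, each of which sets single pools against each other with no replicate check. The remaining pools, bri1-ems72 replicate 1 and WT-ems72 replicate 2, share no title number. Between them 0 of 7 genes were higher in the mutant pool, where 47.6% of all tested genes were.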

How the data were processed

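Per the labels' protocols, reads were paired, 100 nt long and came from a stranded mRNA kit. The submitters' processing notes name HISAT2 2.1.0 and featureCounts 1.6.2, beside FastQC 0.11.2, Trimmomatic 0.38, R 4.1.1 and edgeR 3.34.1. For build, annotation and strand setting the entry is: not given in the sources used here. The deposited values are raw counts per gene, whole numbers not normalized by the authors. The 12 columns carry 6 names, so the 2 columns of a pool were summed and n counts pools.

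All genes were fitted with edgeR 4.0.16 in R 4.3.3 (filterByExpr, 10422 genes removed; TMM; robust glmQLFit and glmQLFTest with genotype as the only term). P-values were adjusted by Benjamini-Hochberg with a threshold of 0.05. TMM factors scaled the CPM, and its log2 was taken with a prior count of 2. SE and intervals came from the quasi-likelihood F and its degrees of freedom. The edgeR fit was tested on simulated counts, and the ranking by r on a profile made to match. The other steps were not tested in this way. Alternatives were RLE and total library size, DESeq2 1.42.0, limma-voom 3.58.1, other filters, replicate blocks, single columns and leaving out each pool.

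The members and lists were chosen with earlier results of these data known. Of the 34129 IDs, 0 matched the RefSeq gene table (assembly NCBIv3), as written or with the SORBI prefix. Product-text lists (same-enzyme copies, accessory C4 genes, Calvin cycle, light reactions, chlorophyll synthesis; root, green-tissue and embryo markers) and CPM per length were therefore not applied, the tissue label was not checked against markers, and no sequence is shown. The rule for named genes took all 7 members, BRI1 and the 2 genes most alike in pattern for each member of at least 1 mean CPM; IDs are printed for RbcS and PEPC only, as they carry no annotation here. The labels do not say that the replicate numbers of the descriptions pair the pools. Across genes, the deviations of same-numbered pools from the mean of their genotype correlated at 0.044, -0.23 and 0.40. The value of 0.40 belongs to replicate 3, whose pools also share title number 5. Deviations within a genotype are tied to one shared mean, so these values cannot decide whether pools were paired. The 2 pairs that share a title number correlated at 0.39 and 0.40, the highest of the 9 pairs across genotypes; 2 pairs and labels that do not explain the number were not taken to show a pairing.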

Additional observations from a re-analysis of the deposited data

How the results depend on the processing

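Of 16 alternatives, 15 gave 0 genes called in either direction over the whole table, and DESeq2 gave 3 higher and 2 lower; the cause was not tested. Under all 16, 0 C4 enzyme genes were called. NADP-ME was tested in 14 of the 16, since the filter of 1 CPM in 3 pools and the second-listed columns alone removed it. DESeq2 gave no adjusted p for PEPC and CA Sobic.003G234200, so neither could be called there. Scaling by RLE or by total library size turned none of the 7 signs. Limma-voom turned PEPC (-2.39) and CA Sobic.003G234400 (0.23). The replicate block by description number gave 0 calls and turned PEPC (-2.90), CA Sobic.003G234200 (1.26), CA Sobic.003G234400 (0.23) and NADP-MDH (0.031). The replicate block by title number gave 0 calls. It raised the genes at unadjusted p below 0.05 from 337 (1.42% of those tested) to 1311 (5.53%, 1 of 7 C4 enzyme genes among them). The cause was not tested. A share of about 0.05 is what such p-values give where no gene differs. The 1311 genes were therefore not read as genes that differ between genotypes. This block turned the same 4 genes, to -0.79, 1.23, 0.63 and 0.12 in that order. WT-ems72 replicate 2 (title number 4) and bri1-ems72 replicate 1 (title number 1) share their number with no other pool. The genotype term of this fit therefore rests on the pools with title numbers 2 and 5. With each pool left out once, the log2 fold changes ran from -4.65 to 0.74 for PEPC, -2.30 to 2.42 for CA Sobic.003G234200, -0.45 to 0.99 for CA Sobic.003G234400, -0.40 to 0.60 for NADP-MDH, -1.17 to 0.73 for RbcS and -0.63 to 0.78 for PPDK. It gave 6.09 to 22.4 for the highest over the lowest pool of RbcS and 4.69 to 19.2 for that of PPDK, both lowest without bri1-ems72 replicate 2. Levels of PEPC and NADP-ME rest on as few as 3 counts in a pool, and 3 counts correspond to 0.0545 to 0.0702 CPM depending on the pool.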

Other observations

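The genes with the nearest ID numbers on either side of the 7 C4 enzyme genes varied less between pools than those 7. They were taken where they averaged at least 1 CPM, and C4 enzyme genes were left out. The CA genes, which are nearest to each other in this sense, are therefore not among them. This comparison was chosen after the values were seen. The 12 neighbours differed 1.23-fold to 3.10-fold between their highest and lowest pool (median 2.04-fold), and 0 of them were called between genotypes (edgeR, 0 of all tested genes called). Over all tested genes the median was much the same, at 2.03-fold with a prior count of 2. Sobic.007G166200, next in number to NADP-MDH, had 5.93 to 13.1 CPM. Sobic.003G036000, close in number to NADP-ME, had 68.5 to 124.1 CPM in pools where NADP-ME had at most 1.73 CPM. Sobic.003G234500, next to CA Sobic.003G234400, had 8.65 to 24.9 CPM. The table does not say what these neighbours encode. RbcS carries the number of chromosome 5 in its ID, where 52.4% of 2436 genes passed the low-count filter against 69.5% over the whole table.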
